A study of Mus musculus with 4 samples.

Results

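The 48 genes described here encode heterogeneous nuclear ribonucleoproteins (hnRNPs) other than hnRNP K, SR proteins and further regulators of alternative splicing. They were chosen by name from the table of gene expression values, which holds 22138 genes. Names as listed in the table matched 44 of them, and Hnrnpdl, Hnrnpll, Raly and Ptbp3 were matched by Ensembl identifier because the table lists them under other names (Hnrpdl, Hnrpll, C130057N11Rik and Rod1). The members fall into 21 hnRNP genes, 10 SR genes and 17 other regulators. All 48 passed the filter on low values (mean RPKM of 0.5 or more). RPKM is a read count scaled to the length of the gene and to the number of mapped reads in the library, so levels can be compared between genes.

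Splicing removes introns from pre-mRNA, and regulators bound to the transcript decide which exons are kept. In the textbook scheme, SR proteins bind exonic enhancers and recruit the spliceosome, while hnRNPs often bind silencers and oppose them. Both families package nascent RNA, are abundant in proliferating cells, and control their own transcripts and those of their paralogs through exons that lead to RNA decay. In embryonic stem cells PTBP1, ESRP1 and RBFOX2 are known for shaping a splicing program that differs from that of differentiated cells, where MBNL proteins act in the other direction. Values per gene, as used here, do not separate the isoforms of a gene.

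RNA came from TT2, a female mouse embryonic stem cell line of strain C57BL/6xCBA, kept feeder-free in medium with serum and LIF. Cells received control siRNA (2 libraries) or siRNA against Hnrnpk (2 libraries), at 100 nM and, 24 hours later, at 50 nM, and were harvested about 72 hours after the second dose. The design text calls the replicates biological. Both groups come from a single cell line, and the sources used here do not give the siRNA sequences. Hnrnpk, which encodes a poly(C)-binding member of the hnRNP family and is no member of the set, stood at 236 and 226 RPKM after control siRNA and at 68.0 and 70.5 RPKM after Hnrnpk siRNA. Its log2 change was -1.73 (SE 0.0629, limma adjusted p = 6.59e-08).

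Depth relative to control replicate 1 was read as the most frequent ratio between libraries over genes under 0.2 RPKM. It was 0.982 in the other control library and 0.891 and 0.882 after Hnrnpk siRNA. These ratios rest on 110 of 3540, 67 of 3188 and 80 of 3210 genes, so they are rough. The absolute depth is unknown. Stem cell markers were high in all libraries, with a summed level of 2893 to 3048 RPKM over 8 genes after control siRNA and 3834 to 4184 after Hnrnpk siRNA. Of these 8 genes 2 were called higher (Dppa5a, which makes up most of the sum in the Hnrnpk siRNA libraries, and Nanog) and 2 lower (Sox2 and Tdgf1). The 8 primitive endoderm markers summed to 11.8 to 12.0 RPKM in the controls and to 53.1 to 55.1 RPKM after Hnrnpk siRNA, with 6 of 6 tested genes called higher. The 8 trophectoderm markers summed to 69.6 to 72.7 and 96.7 to 102 RPKM, with 5 called higher and 1 lower of 6 tested. Of the 8 fibroblast markers, 6 were under 1 RPKM in all libraries, and the sum was 8.79 to 10.4 RPKM in the control libraries and 5.05 to 5.31 RPKM in the others, with 2 of 3 tested called lower. The 7 neural markers matched summed to 108 to 120.0 RPKM after control siRNA and 87.2 to 97.5 RPKM after Hnrnpk siRNA, mostly Tubb3, and 6 of 6 tested were called lower. With the filter at 1 RPKM 3 neural markers were called lower, since the means of Rbfox3, Pax6 and Map2 lie below it. Of all genes tested 32.2% were called higher and 35.0% lower. No marker was at 0 in all libraries. These marker lists moved with the groups, and their part in the changes below was not tested. In RNA from whole cultures, fewer cells of a type and less RNA per cell cannot be told apart.

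The upstream sequences of 5 members are shown so that the starts of genes that moved in opposite directions can be compared. They were chosen after the values were seen, as the largest called fall and rise among hnRNP genes (Hnrnpa1 and Hnrnpa2b1) and among SR genes (Srsf9 and Srsf5), with the largest rise among the other regulators (Rbm39). Each is the 150 bases just before the RefSeq transcription start (build GRCm38.p6), written 5′ to 3′ on the strand of the gene. Capitals mark CCCTCCC or its reverse complement, letters of the kind found in CT elements, C-rich DNA to which hnRNP K is known to bind.
Hnrnpa1 (chr15:103240247-103240396, plus strand): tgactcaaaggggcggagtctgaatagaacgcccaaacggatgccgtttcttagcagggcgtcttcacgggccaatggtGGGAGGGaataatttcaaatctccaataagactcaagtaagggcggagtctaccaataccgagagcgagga
Hnrnpa2b1 (chr6:51469895-51470044, minus strand): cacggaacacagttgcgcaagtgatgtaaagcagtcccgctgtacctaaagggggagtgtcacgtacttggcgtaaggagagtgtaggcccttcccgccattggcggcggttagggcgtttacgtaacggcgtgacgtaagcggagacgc
Srsf9 (chr5:115327027-115327176, plus strand): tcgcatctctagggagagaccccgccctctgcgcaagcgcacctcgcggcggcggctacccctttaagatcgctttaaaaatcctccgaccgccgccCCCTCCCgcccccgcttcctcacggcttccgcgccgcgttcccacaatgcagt
Srsf5 (chr12:80945349-80945498, plus strand): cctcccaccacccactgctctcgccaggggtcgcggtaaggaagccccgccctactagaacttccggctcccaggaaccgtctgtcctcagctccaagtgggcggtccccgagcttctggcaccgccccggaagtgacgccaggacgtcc
Rbm39 (chr2:156180239-156180388, minus strand): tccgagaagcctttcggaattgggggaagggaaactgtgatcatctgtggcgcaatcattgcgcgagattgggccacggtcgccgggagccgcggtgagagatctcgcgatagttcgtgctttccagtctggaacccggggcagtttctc

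The Hnrnpa1 and Srsf9 windows hold the letters once each, and the windows shown for Hnrnpa2b1, Srsf5 and Rbm39 do not hold them. A second start of Rbm39 has 1 match, and the window of Hnrnph3, another gene that fell, has 2. RefSeq start sites were matched for 42 of the 48 members. Esrp1, the largest fall among the other regulators, was not matched, so the sequences shown include no fall of that class. Some members had several starts, and the matched starts gave 57 windows. CCCTCCC, searched on both strands, was in 18 of these 57 (31.6%), against 14.6% of the 32851 windows of all genes. By call it was in 5 of 11 windows of members that were lower (45.5%), 4 of 21 of members that were higher (19.0%) and 9 of 25 of members that were not called (36.0%). GGGCGG, the letters of a GC box, was in 12 of 13 SR windows (92.3%), 17 of 28 hnRNP windows (60.7%) and 28.6% of all windows. Matches of the motifs can overlap at runs of C or G. Windows of the same gene can also overlap and share a match, as for Hnrnph1 and Srsf4, so windows are not independent. The windows of all genes were not matched to those of members for GC content. A match describes the letters only, since no binding was measured.

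As a group these genes were highly expressed and most of them moved by less than 2-fold. The median of their mean levels was 52.2 RPKM, against 9.38 RPKM over the 12486 genes tested, and 20 of the 48 lay above the 90th percentile of those tested (63.8 RPKM). Mean levels ran from 515 RPKM for Hnrnpab and 361 RPKM for Hnrnpa2b1 down to 3.42 RPKM for Tia1 and 3.13 RPKM for Mbnl1. After Hnrnpk siRNA 18 of the 48 had calls for a rise and 14 for a fall, which left 16 without a call. A call means an adjusted p below 0.05 in limma's moderated test on log2(RPKM + 0.5), with Benjamini-Hochberg adjustment over all genes tested. The share called among members, 66.7%, is near the 67.2% of all genes tested, a share near the background. By direction 37.5% of members were higher and 29.2% lower, against 32.2% and 35.0% of all genes. Only Hnrnpa1, Esrp1 and Rbm39 changed by at least 2-fold with a call (6.25% of members, against 8.51% of all genes). The median size of change was 0.26 on the log2 scale for members and 0.32 for all genes. The libraries of the groups did not overlap for 41 of the 48 members, but the same was so for 84.7% of all genes tested, so separate groups do not set a member apart.

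**Figure D1:**
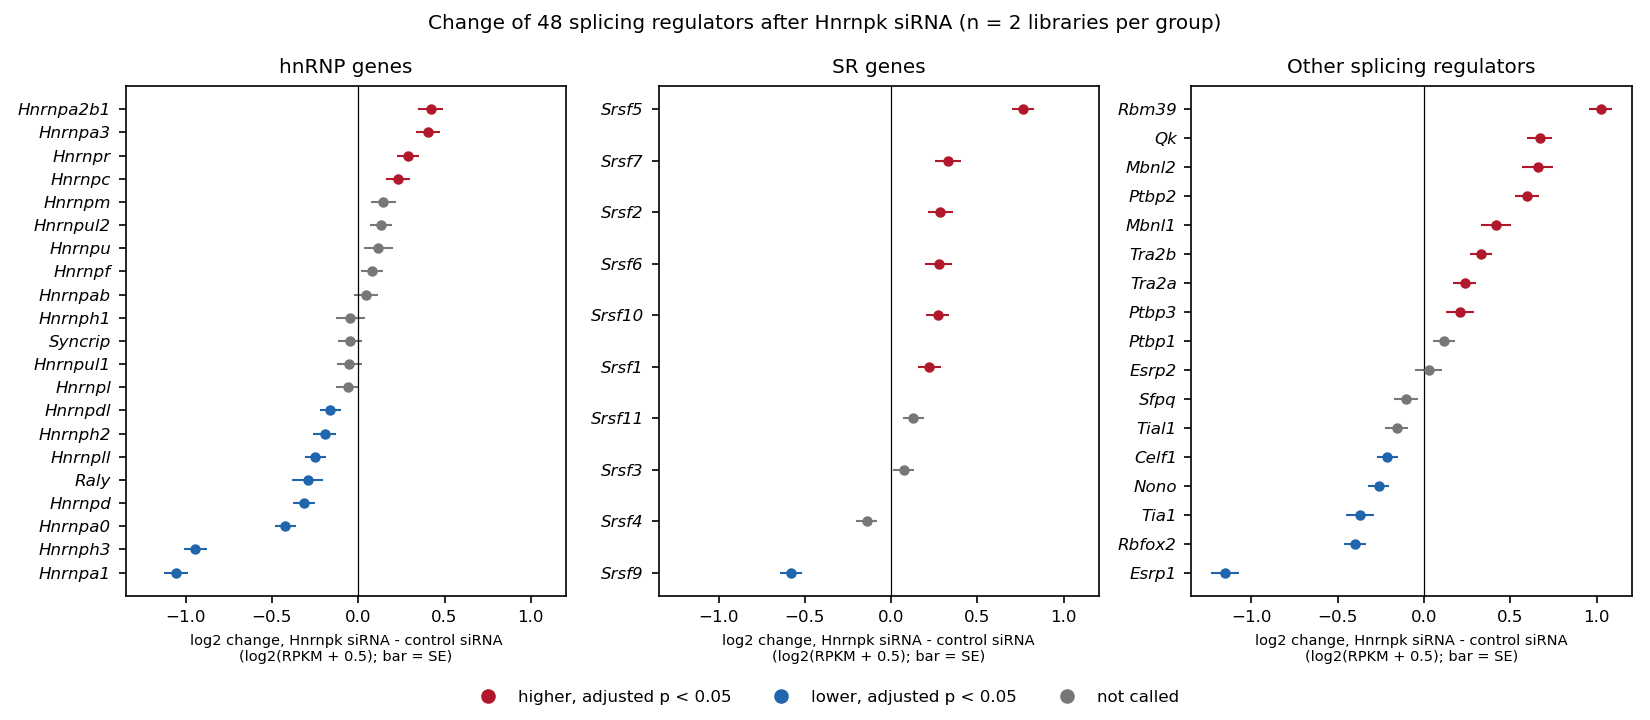
Log2 change (Hnrnpk siRNA minus control siRNA, on log2(RPKM + 0.5)) of all 48 members in 3 panels for hnRNP genes, SR genes and other regulators. Points are limma estimates from 2 libraries per group, bars are SE, and colour gives the call; 12 of the 21 hnRNP points lie left of 0 and 8 of the 10 SR points lie right of it.

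The SR genes had more rises than falls, and the hnRNP genes had more falls than rises. Among hnRNP genes 4 of 21 were higher (19.0%), 8 lower (38.1%) and 9 not called, and their share of falls is near the 35.0% of all genes tested. In the SR class 6 of 10 were higher (60.0%, against 32.2% of all genes), 1 was lower (10.0%) and 3 were not called. The median log2 change was -0.047 for hnRNP genes and 0.24 for SR genes, a difference of -0.29, beside a median of -0.015 over all genes tested. These medians are descriptions with no test, because the members were chosen by family with earlier results of these data known. Quantile normalization lowered the SR split to 3 higher and 2 lower and the SR median to 0.12. Of the 12486 genes tested, that fit called 4176 higher and 4332 lower, so the SR share of rises was near the background. With the GC trend of each library removed 5 SR genes were higher and 1 lower, with an SR median of 0.15 and an hnRNP median of 0.022. The hnRNP median was also above 0, at 0.023, without control replicate 2. Without Hnrnpk siRNA replicate 1 the lower hnRNP genes numbered 5 in place of 8.

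Summed levels were higher after Hnrnpk siRNA in both classes, and no test was run on them. The median log2 change was -0.047 for hnRNP genes, unlike their sum, and 0.24 for SR genes. The 21 hnRNP genes summed to 2283 and 2419 RPKM with control siRNA and to 2451 and 2467 RPKM with Hnrnpk siRNA. The sums did not overlap between groups. As a share of all RPKM they were 0.635% and 0.667% against 0.649% and 0.632%, so the shares overlapped. The 10 SR genes summed to 1006 and 1071 RPKM after control siRNA and to 1183 and 1241 RPKM after Hnrnpk siRNA. Their share was 0.280% and 0.295% against 0.313% and 0.318%, and these shares did not overlap between groups. Sums are led by the most abundant genes.

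**Figure D2:**
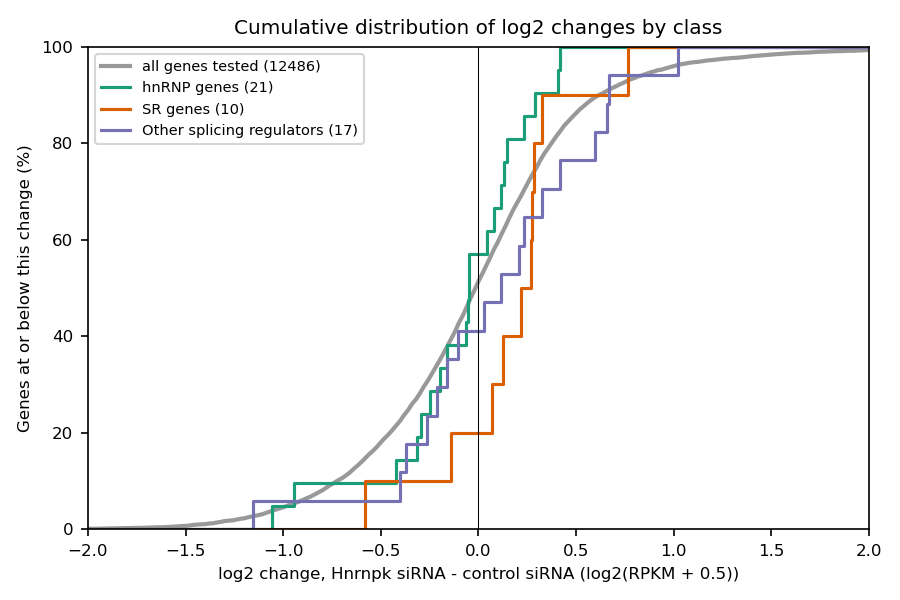
Cumulative distribution of log2 changes for 21 hnRNP genes, 10 SR genes, 17 other regulators and the 12486 genes tested; the x axis is the log2 change on log2(RPKM + 0.5) and the y axis the percent of genes at or below it. The SR curve runs to the right of the curve of all genes over most of its course (median 0.24 against -0.015), and the hnRNP curve crosses it near its centre (median -0.047).

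Within the hnRNP A/B family the members moved in opposite directions. These proteins bind UAGG-like silencers and, in the case of hnRNP A1, counteract SRSF1 in the choice of splice sites. Hnrnpa1 (chromosome 15, 103240432 to 103246692, GRCm38) stood at 33.1 and 30.9 RPKM with control siRNA and only at 14.5 and 15.7 RPKM with Hnrnpk siRNA. Both libraries of the depleted group were far below both controls. The log2 change of Hnrnpa1 was -1.06 (SE 0.0706, limma adjusted p = 1.77e-06), the largest fall among hnRNP members. Hnrnpa0 (chromosome 13, 58125879 to 58128556), a single-exon gene whose product binds AU-rich elements, went from 65.4 and 68.0 RPKM to 49.6 and 49.7 RPKM (log2 change -0.42, SE 0.0606, adjusted p = 0.000202). Hnrnpa2b1 (chromosome 6, 51460932 to 51469894), which also acts in RNA transport, rose from 295 and 323 RPKM to 409 and 417 RPKM (log2 change 0.42, SE 0.0726, adjusted p = 0.000653). Hnrnpa3 was low at 9.62 and 9.87 RPKM and rose to 12.8 and 13.3 RPKM (log2 change 0.41, SE 0.0693, adjusted p = 0.000605). The groups did not overlap for any of these 4 genes, which also held for 84.7% of all genes tested.

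These shifts changed the make-up of the family. Hnrnpa2b1 made up 73.2% and 74.8% of the summed RPKM of the 4 genes in the controls and 84.2% and 84.1% after Hnrnpk siRNA. The share of Hnrnpa1 went from 8.22% and 7.15% to 2.995% and 3.16%, and that of Hnrnpa0 from 16.2% and 15.7% to 10.2% and 10.02%. Levels of Hnrnpa1 and Hnrnpa3 are uncertain, since 50.4% and 28.9% of their longest coding transcript matched 11 and 27 other genes at 95% identity or more. The sources used here do not say how reads matching several places were counted.

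The H/F family, which binds runs of G, changed mainly in its less abundant members. Hnrnph3 (chromosome 10, 63014664 to 63024217) stood at 18.2 and 18.6 RPKM after control siRNA and at 9.14 and 9.47 RPKM after Hnrnpk siRNA (log2 change -0.94, SE 0.0675, limma adjusted p = 2.59e-06). Its share of the family's RPKM went from 9.62% and 8.84% to 4.82% and 5.02%. Hnrnph2, on chromosome X, was lower by little, at 15.6 and 16.3 against 14.0 and 13.8 RPKM (log2 change -0.19, adjusted p = 0.0261). The abundant members were not called. Hnrnph1 was at 86.8 and 103 RPKM and then 91.1 and 92.4 RPKM, with groups that overlapped, and Hnrnpf was at 68.2 and 71.8 RPKM and then 75.4 and 72.7 RPKM. Hnrnph2 lost its call without control replicate 2 and without either Hnrnpk siRNA replicate. Levels of Hnrnpf and Hnrnph2, and so the shares of the family, are uncertain. Near-identical copies in 6 other genes and 1 other gene matched 52.0% and 33.7% of their longest coding transcripts. For Hnrnpf 26.5% of exonic bases were also covered on the opposite strand.

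**Figure D3:**
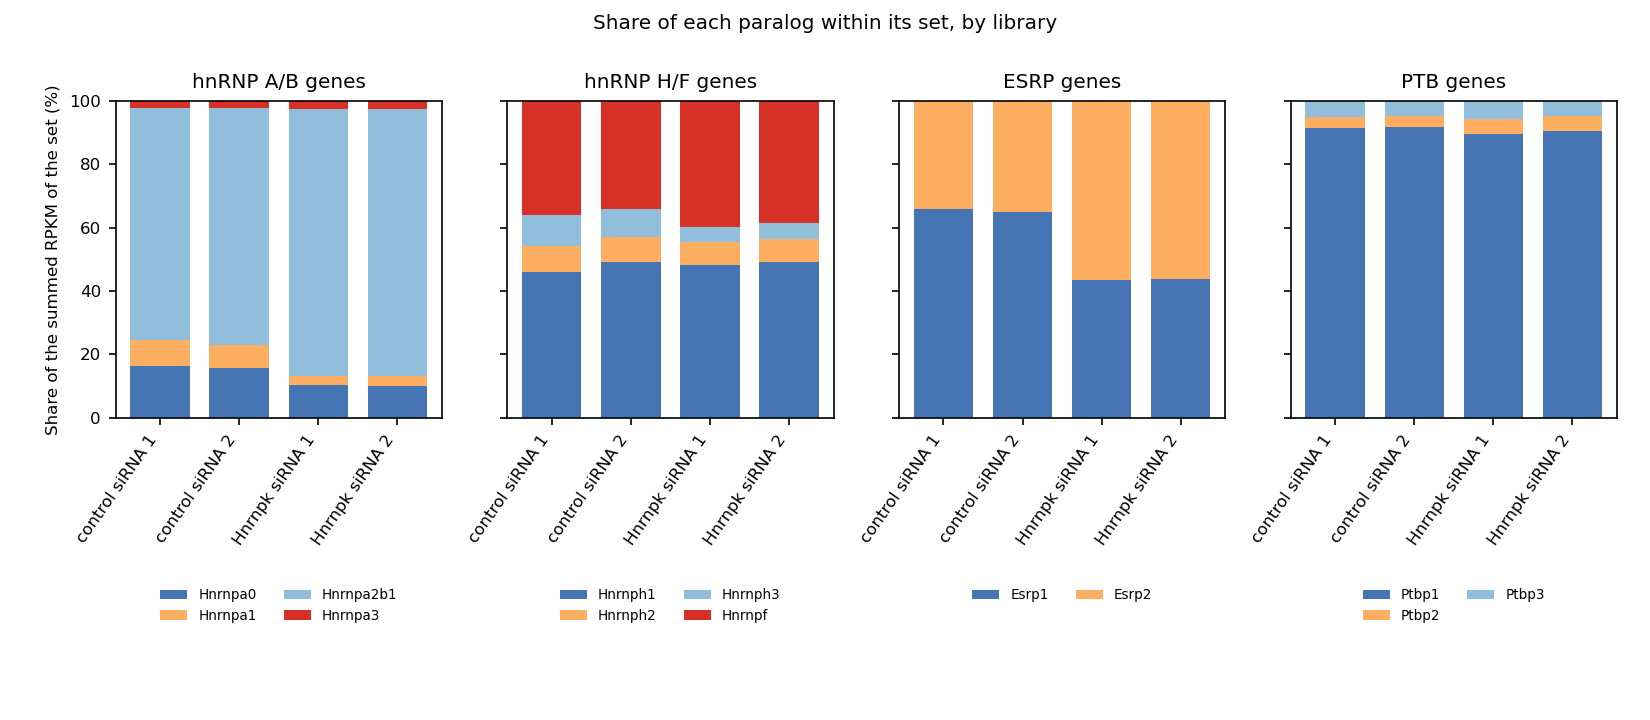
Share of each paralog in the summed RPKM of its set (y axis, percent) in each of the 4 libraries (x axis), as stacked bars for the hnRNP A/B, hnRNP H/F, ESRP and PTB genes. The Hnrnpa2b1 share is larger in both Hnrnpk siRNA libraries (84.2% and 84.1%) than in the control libraries (73.2% and 74.8%), and the Esrp1 share is smaller (43.5% and 43.8% against 65.8% and 64.9%).

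Other hnRNP genes that fell did so by less than 1.5-fold. Hnrnpd (AUF1, which binds AU-rich elements and acts in mRNA decay) went from 79.2 and 84.8 RPKM to 67.3 and 64.4 RPKM (log2 change -0.31, SE 0.0649, limma adjusted p = 0.00193). Its paralog Hnrnpdl was at 49.2 and 49.4 RPKM and then at 43.4 and 44.6 RPKM (log2 change -0.16, adjusted p = 0.0362), a call lost when any single library was left out. Hnrnpll, a CA-repeat binder known from lymphocyte splicing, went from 49.4 and 50.6 RPKM to 41.8 and 42.2 RPKM (log2 change -0.25, adjusted p = 0.00472). Its more abundant paralog Hnrnpl overlapped between groups, with 145 and 136 RPKM against 132 and 138 RPKM (log2 change -0.062, adjusted p = 0.424). Raly, a relative of hnRNP C, had 76.3 and 77.2 RPKM in the controls, and its depleted libraries lay apart from each other at 56.5 and 69.3 RPKM. The Raly call (log2 change -0.29, adjusted p = 0.0156) was lost without Hnrnpk siRNA replicate 1, where the change was -0.15, and with GC trends removed. The table names this row C130057N11Rik, while its identifier is that of Raly in GENCODE M21.

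On the rising side were Hnrnpc and Hnrnpr besides the A/B genes. Hnrnpc, which binds U-tracts and packages nascent transcripts, rose from 222 and 232 RPKM to 258 and 275 RPKM (log2 change 0.23, SE 0.0686, limma adjusted p = 0.0135), a call that was lost without control replicate 1 and without Hnrnpk siRNA replicate 2. Hnrnpc shares 31.8% of its longest coding transcript with 1 other gene. Hnrnpr rose from 31.4 and 32.9 RPKM to 39.1 and 39.6 RPKM (log2 change 0.29, adjusted p = 0.00249), whereas the related gene Syncrip (hnRNP Q) overlapped between groups at 30.9 and 34.1 against 32.3 and 30.6 RPKM. The most abundant member, Hnrnpab, had 497 and 518 RPKM in the control libraries and 521 and 525 RPKM in the others (log2 change 0.043, adjusted p = 0.606). Hnrnpu, a nuclear scaffold protein, stood at 272 and 317 RPKM and then at 329 and 309 RPKM, with overlapping groups. Hnrnpul1 also overlapped, and Hnrnpul2 and Hnrnpm had log2 changes of 0.13 and 0.15 without a call. Of the 12 called hnRNP genes, 8 kept their call and direction under each of the 13 alternative fits: Hnrnpa1, Hnrnph3, Hnrnpa0, Hnrnpd, Hnrnpll, Hnrnpr, Hnrnpa3 and Hnrnpa2b1.

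**Figure D4:**
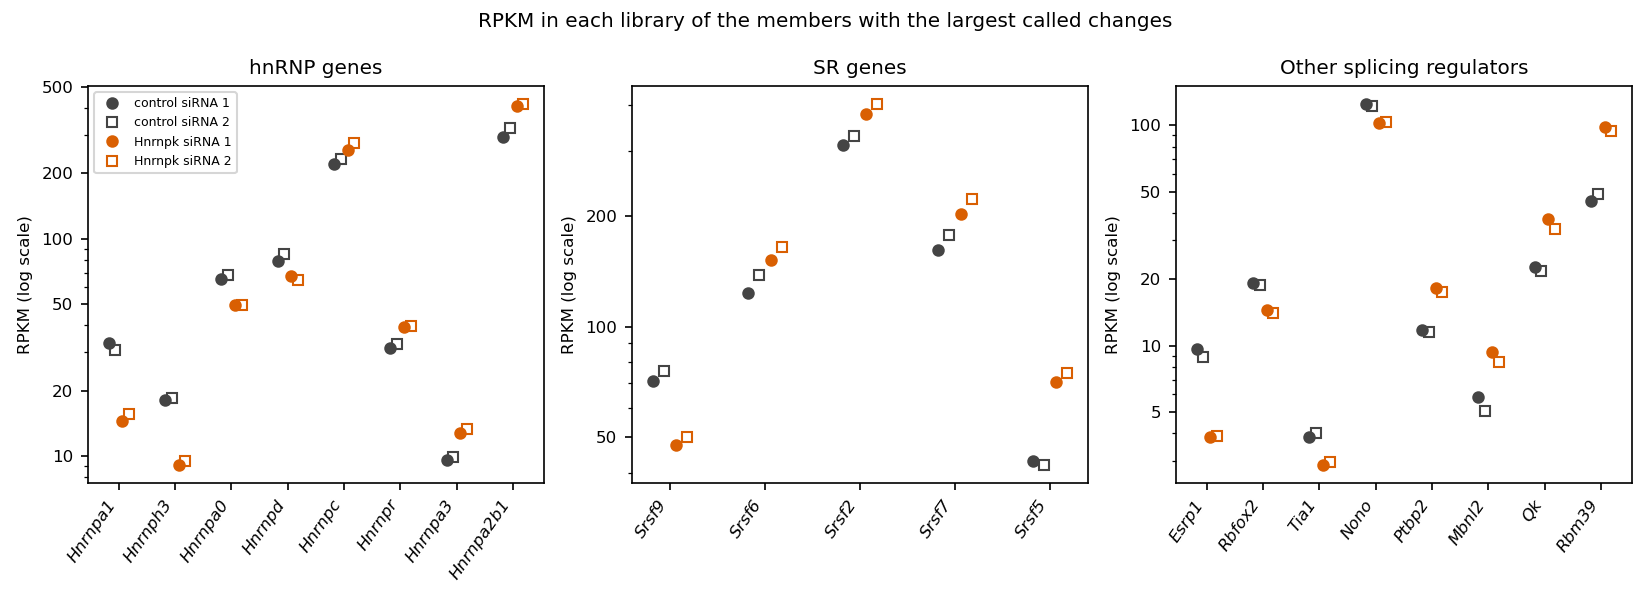
RPKM in each library (log axis) of up to 4 called rises and 4 called falls of largest size per class; filled circles and open squares are replicates 1 and 2, dark grey for control siRNA and orange for Hnrnpk siRNA. The gap between orange and grey symbols is widest for Esrp1, Hnrnpa1 and Rbm39. Symbols are separate for every gene shown, but genes were picked by call and size, and 84.7% of all genes tested had separate groups.

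SR proteins carry RNA recognition motifs and a domain rich in arginine and serine. Srsf5 (chromosome 12, 80945504 to 80950507) rose most, from 43.1 and 42.1 RPKM to 70.6 and 74.8 RPKM (log2 change 0.76, SE 0.0627, limma adjusted p = 6.01e-06). It stands apart in size, with the next rise in the class at 0.33. Srsf7, which links splicing to mRNA export, rose from 161 and 177 RPKM to 202 and 223 RPKM (log2 change 0.33, SE 0.0765, adjusted p = 0.00387). Srsf2, a general activator of exon inclusion and the most abundant SR gene, rose from 312 and 331 RPKM to 379 and 404 RPKM (log2 change 0.28, SE 0.0714, adjusted p = 0.00569). Srsf6 rose from 124 and 138 RPKM to 152 and 165 RPKM (log2 change 0.27, SE 0.0764, adjusted p = 0.00992). These 4 genes were higher in both Hnrnpk siRNA libraries than in either control. Groups were separate, in either direction, for 84.7% of all genes tested.

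Srsf10 and Srsf1 completed the rising group. Srsf10, a repressor when dephosphorylated, was at 24.0 and 26.3 RPKM and then at 30.5 and 30.4 RPKM (log2 change 0.27, adjusted p = 0.00599). Srsf1, the prototype of the family, was at 98.2 and 105 RPKM and then at 123 and 115 RPKM (log2 change 0.22, adjusted p = 0.0163). Against these stood Srsf9 (chromosome 5, 115327177 to 115333080), the closest paralog of Srsf1. Srsf9 fell from 71.0 and 75.5 RPKM to 47.7 and 50.0 RPKM (log2 change -0.58, SE 0.0646, limma adjusted p = 3.9e-05). Srsf1 and Srsf9 changed in opposite directions.

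The remaining SR genes were not called. Srsf3 was at 83.9 and 86.9 RPKM and then 89.3 and 90.2 RPKM (log2 change 0.072, adjusted p = 0.317), Srsf11 had a log2 change of 0.13 (adjusted p = 0.0847) and Srsf4 of -0.14 (adjusted p = 0.0666). The calls of Srsf5, Srsf7, Srsf10 and Srsf9 held under each of the 13 alternative fits. Srsf1, Srsf2 and Srsf6 lost theirs under quantile normalization. Srsf1 also lost it with GC trends removed, without control replicate 1 and without Hnrnpk siRNA replicate 1, and Srsf6 without control replicate 1 and without Hnrnpk siRNA replicate 2. Near-identical copies or overlapping genes touch Srsf5 (51.7% of its transcript shared with 1 other gene), Srsf3 (49.5%), Srsf4 (43.0% of its exonic bases covered on the opposite strand) and Srsf2 (25.3% on the opposite strand). Whether the libraries kept strand is not stated in the sources used here.

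The SR-like genes Tra2a and Tra2b, whose products bind GAA-rich enhancers, moved with the SR class. Tra2a rose from 49.7 and 53.4 RPKM to 58.8 and 62.6 RPKM (log2 change 0.24, limma adjusted p = 0.0111), a call lost without control replicate 1 and without Hnrnpk siRNA replicate 2. Tra2b, with 25.5% of its longest coding transcript shared with 4 other genes, rose from 38.9 and 41.6 RPKM to 50.0 and 51.2 RPKM (log2 change 0.33, SE 0.0639, adjusted p = 0.00134). With Tra2a and Tra2b added, the SR class counts 8 higher (66.7%) and 1 lower (8.33%) of 12, and its median is 0.25. Of all genes tested 32.2% were higher and 35.0% lower.

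Rbm39 showed the largest rise of all members. It encodes a coactivator related to U2AF that takes part in the recognition of the 3′ splice site. Rbm39 (chromosome 2, 156147239 to 156180238) stood at 45.2 and 48.9 RPKM with control siRNA and reached 97.9 and 94.1 RPKM with Hnrnpk siRNA. The log2 change of Rbm39 was 1.02 (SE 0.0657, limma adjusted p = 1.45e-06), and no other gene shared its longest transcript at 95% identity.

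The PTB genes differed in how far they moved. PTBP1 binds CU-rich silencers and is known to repress its paralog PTBP2 by skipping of an exon. Ptbp1 was at 322 and 323 RPKM and then at 346 and 352 RPKM (log2 change 0.12, limma adjusted p = 0.144). With GC trends removed the log2 change was 0.21 for Ptbp1 (limma adjusted p = 0.0174), with a call, and 0.084 for Ptbp3, without one. Ptbp2 (chromosome 3, 119718742 to 119784466) rose from 11.7 and 11.6 RPKM to 18.3 and 17.4 RPKM (log2 change 0.60, SE 0.0673, adjusted p = 4.19e-05). Ptbp3 was at 18.3 and 17.3 RPKM and then at 22.2 and 19.0 RPKM (log2 change 0.21, adjusted p = 0.048), and this call was lost in 6 of 13 alternative fits. Among them were the fits without control replicate 2 and without Hnrnpk siRNA replicate 1. Ptbp2 made up 3.33% and 3.29% of the summed RPKM of the 3 genes in the controls and 4.73% and 4.49% after Hnrnpk siRNA, so Ptbp1 remained the main PTB transcript in every library. The level of Ptbp1, and so these shares, are uncertain. Its longest coding transcript shares 28.1% with 1 other gene, and 20.7% of its exonic bases were covered on the opposite strand.

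Esrp1, an epithelial splicing regulator active in embryonic stem cells, fell most among all members. Esrp1 (chromosome 4, 11331933 to 11386783) went from 9.63 and 8.83 RPKM to 3.86 and 3.89 RPKM (log2 change -1.15, SE 0.0794, limma adjusted p = 2.14e-06). Its paralog Esrp2 stayed between 4.78 and 5.02 RPKM in all libraries (log2 change 0.028, adjusted p = 0.765). The share of Esrp1 in the pair went from 65.8% and 64.9% to 43.5% and 43.8%, so that Esrp2 had the higher RPKM in the Hnrnpk siRNA libraries.

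MBNL and QKI proteins are known for promoting splicing patterns of differentiated cells, and the members Mbnl1, Mbnl2 and Qk rose. Mbnl1 went from 2.48 and 2.75 RPKM to 3.79 and 3.52 RPKM (log2 change 0.42, SE 0.0893, limma adjusted p = 0.00237). Mbnl2 went from 5.83 and 5.07 RPKM to 9.32 and 8.44 RPKM (log2 change 0.66, SE 0.0897, adjusted p = 0.000142). Qk (chromosome 17, 10202601 to 10319854) went from 22.6 and 21.8 RPKM to 37.4 and 33.9 RPKM (log2 change 0.67, SE 0.0702, adjusted p = 2.67e-05). The calls of these 3 genes held in each of the 13 alternative fits. Mbnl3, which is no member, was near the limit of the filter at 0.654 and 0.688 RPKM against 0.575 and 0.496 RPKM (log2 change -0.18, adjusted p = 0.133). A second table row named Qk, with another identifier, lay at or below 0.104 RPKM and was not used.

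Rbfox2, which binds UGCAUG, fell from 19.2 and 18.8 RPKM to 14.5 and 14.1 RPKM (log2 change -0.40, SE 0.0652, limma adjusted p = 0.000451). Tia1, a binder of U-rich sequence near 5′ splice sites, fell from 3.83 and 4.02 RPKM to 2.88 and 2.96 RPKM (log2 change -0.37, adjusted p = 0.00282). Its paralog Tial1 was at 19.3 and 19.4 RPKM and then at 16.8 and 17.8 RPKM without a call (log2 change -0.16, adjusted p = 0.0586). Celf1, which binds GU-rich sequence, had a log2 change of -0.21 (adjusted p = 0.012), lost as a call without Hnrnpk siRNA replicate 2. Of the paraspeckle pair, Nono fell from 125 and 122 RPKM to 102 and 104 RPKM (log2 change -0.26, adjusted p = 0.00362). Sfpq overlapped between groups, with 161 and 174 RPKM against 161 and 150 RPKM (log2 change -0.11, adjusted p = 0.21). Nono shares 55.4% of its longest transcript with 1 other gene.

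Genes around these regulators were split as well. Of 42 core spliceosome genes 13 were higher (31.0%), 11 lower (26.2%) and 18 not called, with a median of 0.056, close to the background of 32.2% and 35.0%. The 11 falls became 7 without control replicate 2 and 7 without Hnrnpk siRNA replicate 2. U2af1, the small subunit of the factor that reads the 3′ splice site, fell from 63.3 and 67.9 RPKM to 21.04 and 22.1 RPKM (log2 change -1.58, SE 0.0663, limma adjusted p = 1.37e-07). Prpf3, of the U4/U6 particle, had a log2 change of -0.70, and the rises were led by Slu7 (0.70) and Sf3a2 (0.69). Among 15 SR-related genes and other genes with RS domains 7 were higher (46.7%) and 4 lower (26.7%), beside the same background. Luc7l3 rose from 18.9 and 20.98 RPKM to 35.4 and 33.0 RPKM (log2 change 0.77, adjusted p = 1.62e-05), Srsf12 had 0.51, and Scaf4 and Rnps1 had -0.67 and -0.54.

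Kinases of SR proteins and the nuclear import carriers Tnpo1 and Tnpo3 moved more than most, and in both directions. CLK kinases phosphorylate SR proteins in the nucleus, SRPK kinases do so mainly in the cytoplasm, and transportin-SR, encoded by Tnpo3, carries them into the nucleus. Of these 10 genes 4 were higher (40.0%) and 5 lower (50.0%), against 32.2% and 35.0% of all genes, with a median size of change of 0.54, against 0.32 over all genes. Clk1 rose from 15.1 and 15.99 RPKM to 26.5 and 27.7 RPKM (log2 change 0.78, limma adjusted p = 7.68e-06), and Clk4 from 6.79 and 7.38 RPKM to 12.3 and 13.3 RPKM (log2 change 0.81, adjusted p = 1.6e-05). Tnpo3 fell from 36.8 and 36.5 RPKM to 15.93 and 15.96 RPKM (log2 change -1.18, SE 0.0617, adjusted p = 4.96e-07). Srpk2 fell from 12.5 and 11.1 RPKM to 6.44 and 6.04 RPKM (log2 change -0.86, adjusted p = 1.6e-05).

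**Figure D5:**
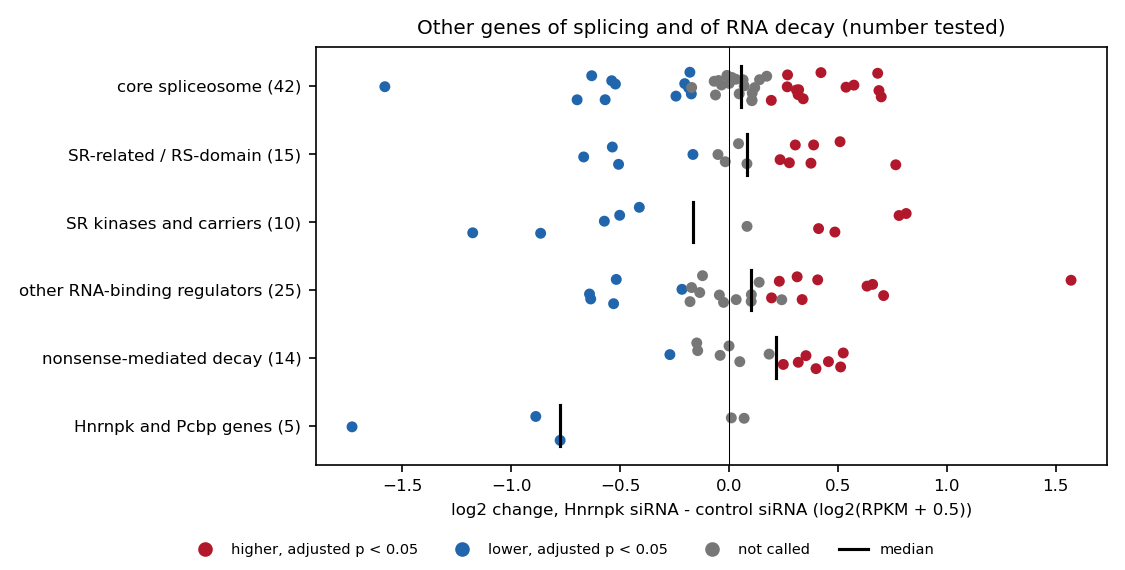
Log2 change (x axis, log2(RPKM + 0.5)) of genes in 6 lists related to splicing and RNA decay (y axis, number tested in brackets); each point is a gene coloured by its call, and the black line is the median of the list. The 10 kinase and carrier genes spread from -1.18 (Tnpo3) to 0.81 (Clk4), and the core spliceosome list centres near 0 (median 0.056).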

How the data were processed

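RNA-seq was analysed in 4 libraries. The authors deposited RPKM values per gene in 1 table with a column per library. BWA, SAMtools and build mm9 are named in the submitters' processing notes, without their role. The sources used here do not give the counting tool or the annotation. Per the labels, the RNA was rRNA-depleted in one place and poly(A)-selected in another. Columns were assigned by the sample descriptions. Reads were not recovered, because the sources used here do not give the gene lengths behind the RPKM values.

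Values were analysed as log2(RPKM + 0.5), a scale that understates changes of low genes. The test covered the 12486 of 22138 genes whose mean reached 0.5 RPKM, with limma 3.58.1 in R 4.3.3, using a mean-variance trend and two-sided moderated tests (7.47 prior degrees of freedom) with Benjamini-Hochberg adjustment. An exact permutation test of 2 against 2 libraries cannot go below 0.333, so calls rest on the variance pooled across genes, and p-values measure only the spread between these libraries. On simulated data for 12486 genes with 200 changed, the fit called 8% of changes of 0.2 on the log2 scale. It called 28% of changes of 0.3, 96% of 0.5 and 100% of 1. Of its 117 calls 1 was false. In the real data 67.2% of genes tested were called, a far larger share than was changed in the simulation. The adjustment depends on that share, so the simulated rates do not give those of the calls reported here.

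The members and all gene lists were chosen with earlier results of these data known. Named genes are the 4 largest called rises and falls of each class, the members highest and lowest in level, and the paralog sets. Up to 2 rises and 2 falls are named per other list, besides Mbnl3 and all paralogs of Hnrnpk. Other members are named to account for all 48. Positions are from GENCODE M21 (GRCm38) by identifier, and promoter sequences from RefSeq (GRCm38.p6). Copies were sought by BLAST 2.17.0 of each longest coding transcript against the GENCODE M21 transcripts (95% identity, at least 100 bases). Alternatives were an added 0.1 or 1 RPKM, a filter at 1 RPKM or none, median-ratio and quantile scaling, no variance trend, a replicate block, leaving out each library, and other class memberships. GC-trend removal (lowess on transcript GC, 98.3% of genes tested), members matched by table name only, and leaving out 14 members with copies or overlaps were added after seeing the data.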

Additional observations from a re-analysis of the deposited data

How the results depend on the processing

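Of the 32 called members, 22 kept their call and direction under all 13 alternative fits (12 higher, 10 lower), and the other 10 were Hnrnpc, Hnrnpdl, Hnrnph2, Raly, Srsf1, Srsf2, Srsf6, Ptbp3, Tra2a and Celf1. The counts of members called ranged from 13 to 19 higher and 11 to 18 lower. Under quantile normalization the SR class had 3 higher and 2 lower with a median of 0.12, beside 4176 higher and 4332 lower of 12486 genes tested. With GC trends removed the SR median was 0.15 and the difference between hnRNP and SR medians was -0.13. Leaving out 1 library at a time gave SR medians of 0.18 (without control replicate 1) to 0.30 (without control replicate 2), differences of -0.28 to -0.20, and 5 to 7 lower hnRNP genes, lowest without Hnrnpk siRNA replicate 1. Restricted to members matched by table name, 5 hnRNP genes were lower, since 3 of those left out had been called; without members with copies or overlaps 2 hnRNP genes were higher, since 2 had been left out. The cause of the other shifts was not tested. Some members without a call gained one in fits to all 4 libraries. Hnrnpl, Sfpq, Srsf4 and Tial1 were called lower under quantile normalization. With GC trends removed Syncrip and Tial1 were called lower, and Hnrnpul2 and Ptbp1 were called higher. Signs changed only for members that were not called in the main fit. Under quantile normalization the log2 change was -0.11 for Hnrnpab, -0.0026 for Hnrnpu and -0.025 for Ptbp1. With GC trends removed it was 0.037 for Hnrnpl, 0.045 for Hnrnpul1 and -0.022 for Srsf3. Without single libraries it ranged from -0.17 (without control replicate 1) to 0.079 (without control replicate 2) for Hnrnph1, from -0.12 to 0.023 for Syncrip and, as the log2 change of Esrp2, from -0.0021 to 0.058, with the same libraries at the ends. For Hnrnpul1 it was 0.0034 without control replicate 1 and 0.010 without Hnrnpk siRNA replicate 2. With the replicate block, 0 of the 48 members changed their call and Hnrnpk had a log2 change of -1.73. Deviations of same-numbered libraries correlated at 0.027 over genes, so no shared replicate effect was seen. With 1 difference per group this cannot show whether same-numbered samples were prepared together. With 1 library left in a group, its spread was assumed to equal that of the other group.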

Other observations

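Other RNA-binding regulators and RNA decay factors were measured in the same libraries. Of 25 further RNA-binding regulators 9 were higher (36.0%) and 5 lower (20.0%), against 32.2% and 35.0% of all genes, with 8 lower once GC trends were removed. Cirbp, the cold-inducible RNA-binding protein gene, rose from 9.14 and 8.61 RPKM to 27.2 and 27.5 RPKM (log2 change 1.57, SE 0.0674, limma adjusted p = 1.49e-07). Rbm47 rose from 12.1 and 11.5 RPKM to 20.4 and 18.8 RPKM (log2 change 0.71). Ddx17, an RNA helicase gene, fell from 96.2 and 78.8 RPKM to 55.4 and 56.5 RPKM (log2 change -0.64).

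Nonsense-mediated decay removes transcripts with early stop codons, including isoforms of many SR and hnRNP genes. Of 14 genes of this pathway 7 were higher (50.0%) and 1 lower (7.14%), against 32.2% and 35.0% of all genes, with a median log2 change of 0.22. Smg5 rose from 38.5 and 40.6 RPKM to 56.0 and 58.4 RPKM (log2 change 0.52, SE 0.0634, limma adjusted p = 6.54e-05) and Upf3b from 9.54 and 9.61 RPKM to 14.5 and 13.3 RPKM (log2 change 0.51). Rbm8a, of the exon junction complex, fell from 77.8 and 75.1 RPKM to 63.6 and 62.9 RPKM (log2 change -0.27). Lower genes numbered 3 under quantile normalization and 2 with no filter on low values and with the replicate block. Among the paralogs of Hnrnpk, Pcbp4 fell from 83.8 and 89.5 RPKM to 45.2 and 48.02 RPKM (log2 change -0.89, SE 0.0662, adjusted p = 3.35e-06). Pcbp3 fell too (log2 change -0.78, limma adjusted p = 1.49e-05). The more abundant Pcbp1 and Pcbp2, with means of 481 and 512 RPKM, had log2 changes of 0.011 and 0.070 without a call.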
